A study of Mus musculus with 9 samples.

Results

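Genes of neutrophil granules and of the acute-phase response were followed in sorted mouse brain microglia: S100a8, S100a9, Ngp, Camp, Ltf, Lcn2, Mmp8, Mmp9, Chil3 and Saa3. They are 10 of the 23238 gene symbols counted in each library, and all 10 were among the 12292 genes with enough counts to test. The set was selected on measured levels, since Saa3, S100a8 and S100a9 had higher counts after clodronate, so for these genes the comparison of clodronate with no clodronate is given as values and not as a test. All mice were wild-type (WT) female C57BL/6N. Normal mice had no injury and no treatment. NMO mice received 1 injection into the striatum of one side, a mixture of NMO-IgG (human antibody against the water channel aquaporin-4) and human complement, which models neuromyelitis optica (NMO). NMO+CL mice had the same injection after clodronate liposomes, given into the peritoneum to deplete monocytes. Brains were taken on day 1, and cells positive for CD45, CD11b and P2ry12 were sorted as microglia. Each group had 3 libraries, and each library was a pool of 3 mice. No group given control IgG or empty liposomes was analysed here, so antibody, complement and needle injury cannot be told apart, nor can clodronate and its carrier.

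Neutrophils carry ready-made antimicrobial proteins in granules that are filled in a fixed order while the cell matures in bone marrow. Transcripts of granule proteins such as lactoferrin (Ltf), cathelicidin (Camp), neutrophilic granule protein (Ngp) and lipocalin-2 (Lcn2) are most abundant in the maturing precursors, whereas S100a8 and S100a9, whose proteins pair to form calprotectin, stay abundant in mature neutrophils and are also made by monocytes. Acute-phase proteins are secreted in response to inflammatory cytokines, and some of them, Lcn2 and Saa3 (serum amyloid A3) included, are also induced in macrophages, glia and endothelium.

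The members lie in a few places in the genome (GRCm38, the build named mm10 in the submitters' notes, GENCODE M21 annotation). S100a8 (chr3:90668978-90670035, plus strand) and S100a9 (chr3:90692632-90695721, minus strand) are neighbours with 22596 bases between them. Camp (chr9:109847379-109849617, minus), Ngp (chr9:110419747-110423012, plus) and Ltf (chr9:111019271-111042767, plus) follow each other on chromosome 9, with 570129 bases between Camp and Ngp and 596258 between Ngp and Ltf. Mmp8 (chr9:7558456-7568485, plus) is on the same chromosome. Lcn2 (chr2:32384633-32388252, minus) and Mmp9 (chr2:164940780-164955850, plus) are on chromosome 2, Chil3 (chr3:106147554-106167564, minus) on chromosome 3 and Saa3 (chr7:46711998-46715700, minus) on chromosome 7. No other annotated gene overlaps any of them.

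Promoters are shown for 5 members that stand for the calprotectin pair, the secondary granule genes and the acute-phase genes. Each runs from 250 bases before the RefSeq transcript start to 50 bases after it (GRCm38.p6, read along the gene's own strand), and capitals mark a match to a motif on either strand.
S100a8, chr3:90668821-90669120, plus strand, capitals PU.1: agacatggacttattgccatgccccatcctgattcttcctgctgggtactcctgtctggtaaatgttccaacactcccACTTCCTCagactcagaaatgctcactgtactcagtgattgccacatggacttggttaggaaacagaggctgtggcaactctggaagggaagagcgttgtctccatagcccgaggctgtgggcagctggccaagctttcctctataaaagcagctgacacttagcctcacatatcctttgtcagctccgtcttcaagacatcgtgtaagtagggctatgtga
S100a9, chr3:90695672-90695971, minus strand, capitals C/EBP: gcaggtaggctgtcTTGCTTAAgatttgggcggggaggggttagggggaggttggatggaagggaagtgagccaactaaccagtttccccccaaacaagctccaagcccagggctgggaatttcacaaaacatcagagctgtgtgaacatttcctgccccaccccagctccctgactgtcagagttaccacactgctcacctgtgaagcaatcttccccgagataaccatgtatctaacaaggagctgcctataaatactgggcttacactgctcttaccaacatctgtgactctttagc
Ngp, chr9:110419558-110419857, plus strand, capitals C/EBP: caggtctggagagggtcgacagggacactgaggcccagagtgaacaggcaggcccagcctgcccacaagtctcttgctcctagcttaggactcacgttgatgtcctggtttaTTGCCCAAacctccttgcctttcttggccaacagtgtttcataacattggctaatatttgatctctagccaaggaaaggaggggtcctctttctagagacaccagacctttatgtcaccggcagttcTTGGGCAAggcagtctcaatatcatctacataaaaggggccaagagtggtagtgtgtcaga
Lcn2, chr2:32387690-32387989, minus strand, capitals C/EBP: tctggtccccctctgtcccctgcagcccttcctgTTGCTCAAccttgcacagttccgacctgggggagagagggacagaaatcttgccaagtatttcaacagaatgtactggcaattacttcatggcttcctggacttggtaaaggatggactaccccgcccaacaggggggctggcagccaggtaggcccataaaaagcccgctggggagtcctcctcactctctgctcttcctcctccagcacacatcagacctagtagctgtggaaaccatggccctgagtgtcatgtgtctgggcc
Saa3, chr7:46715627-46715926, minus strand, capitals C/EBP: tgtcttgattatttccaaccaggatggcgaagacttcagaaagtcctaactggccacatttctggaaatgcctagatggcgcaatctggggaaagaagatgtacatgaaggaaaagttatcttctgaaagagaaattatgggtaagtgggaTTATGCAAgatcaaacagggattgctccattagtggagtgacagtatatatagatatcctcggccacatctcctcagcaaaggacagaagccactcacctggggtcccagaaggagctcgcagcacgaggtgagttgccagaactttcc

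C/EBP factors are the main transcription factors of granule and acute-phase genes, and PU.1 is the master factor of the myeloid lineage. The C/EBP letters searched were TTGCNNAA. They occurred in 6 of the 9 member promoters that the RefSeq table held (S100a9, Saa3, Lcn2, Ngp, Ltf and Mmp8) and in 10.8% of all 32851 promoters. The first matching base lay at -236 in S100a9, -99 in Saa3, -216 in Lcn2, and -138 and -11 in Ngp, where -1 is the base before the start. The PU.1 letters GAGGAAGT occurred in S100a8 (from -172) and Mmp8 and in 3.202% of all promoters. The STAT letters TTCNNNGAA occurred only in Chil3 among the members and in 8.30% of all promoters, and the NF-kB consensus occurred in Camp and in 8.46% of all promoters. The searches were on both strands, the motifs did not overlap in a member promoter, and a match is a description of the letters and not evidence of binding. Mmp9 had no entry in the table.

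Total counts ran from 5788234 to 7837219 per library. Tmem119, a microglial surface protein, was abundant in every library, between 2118 and 3451 CPM (read counts scaled to a common library size). P2ry12, the purine receptor used for the sort, was 2443 ± 337 CPM (SD, n = 3) for Normal, 1648 ± 100.2 for NMO and 353 ± 92.1 for NMO+CL, and was called lower in NMO+CL than in NMO (log2 fold change -2.22, adjusted p = 1.73e-05). Over 12 microglia markers, 0 were called higher and 1, 4 and 7 lower in NMO against Normal, NMO+CL against NMO and NMO+CL against Normal, beside 0.0244%, 1.07% and 4.43% of all tested genes. With each library left out in turn, the call of Siglech in NMO against Normal was kept in 4 of 9 fits, that of Olfml3 in NMO+CL against NMO in 2, and those of Cx3cr1, Fcrls and Sall1 in NMO+CL against Normal in 3, 6 and 7. With library totals alone these calls of Siglech (adjusted p = 0.0717), Olfml3 (0.0544) and Cx3cr1 (0.11) were lost, and that of Olfml3 also with RLE size factors (0.0583) and with only the 2 groups compared (0.0811). Without both Normal replicate 1 and NMO+CL replicate 1 these 3 were not called either (adjusted p = 0.0596, 0.0746 and 0.159). The calls of Fcrls and Sall1 were lost there too (adjusted p = 0.0703 and 0.082). A called gene here has an adjusted p under 0.05 in edgeR's quasi-likelihood test. NMO replicate 2 stood apart for red blood cell transcripts, which summed to 15.6 CPM there and to between 508 and 1329 CPM in the other 8 libraries. For the genes reported here, Normal replicate 1 and NMO+CL replicate 1 stood apart: 9 of the 10 members, all but Saa3, had their highest Normal value in Normal replicate 1 and their highest NMO+CL value in NMO+CL replicate 1. These 2 libraries also had the largest shares of ribosomal RNA counts (Rn45s) of all 9, at 31.0% and 26.7% against 15.98% to 23.5% in the others, and the part of this in the members' levels was not tested. The 10 members together came to 547, 33.9 and 46.3 CPM in Normal replicates 1 to 3, to 274, 133 and 391 CPM in NMO, and to 1469, 402 and 546 CPM in NMO+CL. Values are therefore also given without both libraries, an alternative chosen after the values were seen. In sorted bulk RNA, more cells of a type cannot be told apart from more RNA per cell.

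**Figure D1:**
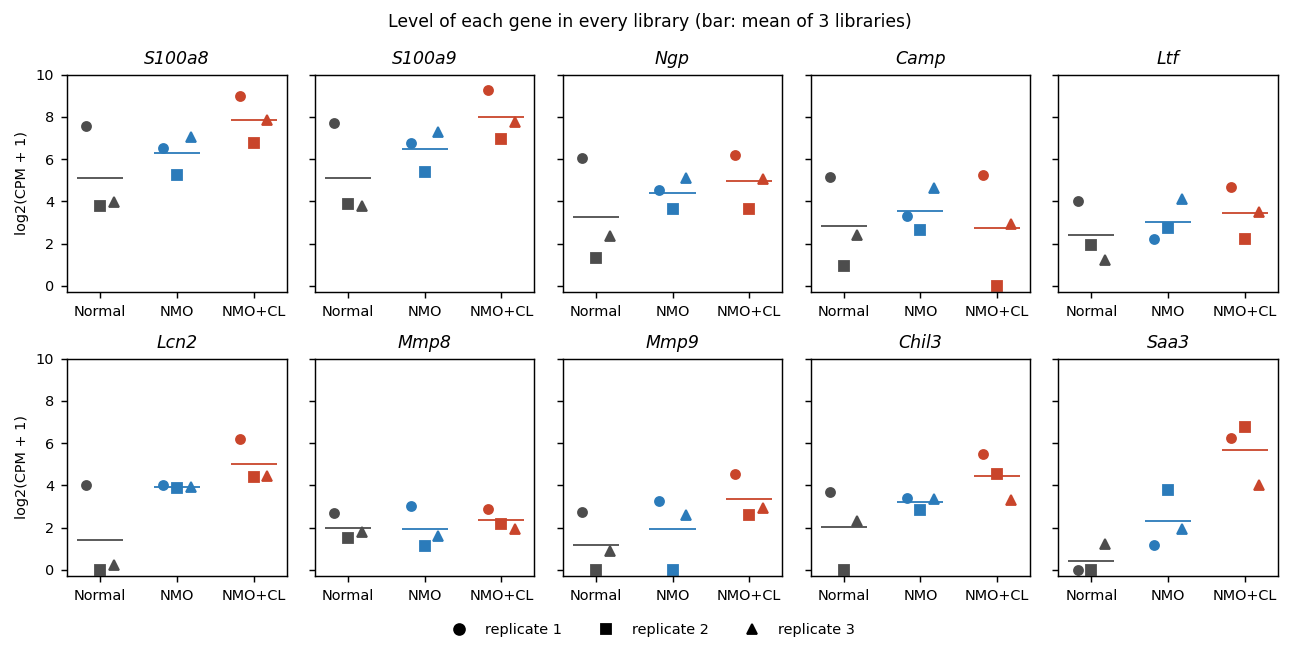
Level of each gene as log2(CPM + 1) (vertical axis, 1 panel per gene) in the 3 Normal, 3 NMO and 3 NMO+CL libraries, with a marker shape for each replicate and a bar at the mean of the plotted values. Replicate 1 (circles) is the highest Normal and the highest NMO+CL library for 9 of 10 genes, and for Saa3 the highest NMO+CL library is replicate 2.

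S100a8 and S100a9 encode the subunits of calprotectin, a calcium- and zinc-binding protein that signals through Toll-like receptor 4. S100a8 measured 188, 12.9 and 14.6 CPM in the 3 Normal libraries, 90.1, 37.1 and 132 CPM in NMO, and 504, 109 and 229 CPM in NMO+CL. S100a9 measured 205, 13.8 and 12.8 CPM in Normal, 108, 40.2 and 152 CPM in NMO, and 611, 122 and 213 CPM in NMO+CL. Normal replicate 1 was above every NMO library for both genes, while the other Normal libraries were below every NMO library. The NMO and NMO+CL ranges overlapped, because NMO replicate 3 was above NMO+CL replicate 2 for both genes. The subunits kept close to each other in every library, with 87.4 to 121 S100a9 reads for each 100 S100a8 reads, although the level of S100a8 varied from 12.9 to 504 CPM.

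Ngp, Camp and Ltf encode proteins stored in the secondary granules. Ngp measured 66.3, 1.505 and 4.21 CPM in Normal, 21.9, 11.3 and 33.8 CPM in NMO, and 73.0, 11.3 and 32.3 CPM in NMO+CL. Camp, the precursor of the antimicrobial cathelicidin peptide, measured 34.4, 0.903 and 4.37 CPM in Normal, 8.80, 5.27 and 23.9 CPM in NMO, and 37.1, 0 and 6.57 CPM in NMO+CL. Ltf, the iron-binding lactoferrin, measured 14.98, 2.86 and 1.35 CPM in Normal, 3.65, 5.63 and 16.01 CPM in NMO, and 24.5, 3.73 and 10.2 CPM in NMO+CL. For all 3 genes the groups overlapped in every pair. Camp had 0 counts in NMO+CL replicate 2, which allows up to 3 counts at 95% confidence (for counting error only, as with each 0 given here), while S100a8 had 672 counts in the same library.

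Lcn2 encodes lipocalin-2, which withholds iron from bacteria by binding their siderophores and is both a granule and an acute-phase protein. It measured 14.98, 0 and 0.168 CPM in Normal (94, 0 and 1 counts), 15.1, 13.9 and 14.2 CPM in NMO, and 73.4, 20.1 and 20.5 CPM in NMO+CL. The 3 NMO libraries lay close together, at 14.4 ± 0.616 CPM (SD, n = 3), and each NMO+CL library was above all of them. Normal replicate 1 lay inside the NMO range and the other Normal libraries were at or near 0.

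Mmp8 and Mmp9 encode neutrophil collagenase and gelatinase B, proteases that cut the extracellular matrix. Mmp8 was low throughout, with 5.42, 1.81 and 2.52 CPM in Normal, 7.17, 1.20 and 2.08 CPM in NMO, and 6.42, 3.56 and 2.88 CPM in NMO+CL, and the 3 groups overlapped. Mmp9 measured 5.58, 0 and 0.841 CPM in Normal, 8.68, 0 and 4.96 CPM in NMO, and 22.0, 5.02 and 6.73 CPM in NMO+CL. The NMO library without an Mmp9 count was replicate 2, the one that nearly lacked red blood cell transcripts. Chil3 encodes Ym1, a chitinase-like lectin of neutrophil precursors and of macrophages under type 2 signals. It measured 11.95, 0 and 4.04 CPM in Normal, 9.56, 6.11 and 9.29 CPM in NMO, and 44.1, 21.9 and 8.81 CPM in NMO+CL, where NMO+CL replicate 3 lay within the NMO range. The last 500 bases of Chil3 are 91.8% identical to Chil4 over 501 aligned positions, and Chil4 had no count in 8 libraries and 8 counts in NMO+CL replicate 2.

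Saa3 encodes serum amyloid A3, the family member made mainly outside the liver. It measured 0, 0 and 1.35 CPM in Normal (0, 0 and 8 counts), 1.26, 12.6 and 2.88 CPM in NMO (10, 105 and 18 counts), and 74.1, 106 and 15.4 CPM in NMO+CL (508, 655 and 96 counts). All NMO+CL libraries were above all NMO libraries, and all but 1 NMO library, replicate 1, were above all Normal libraries. Its order of libraries differed from that of the other members: NMO replicate 2 and NMO+CL replicate 2 were the highest of their groups for Saa3, and the lowest of their groups for S100a8, S100a9 and Ngp. Saa1, whose transcript end is 81.3% identical to that of Saa3 over 284 bases, had no count in any library.

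The first comparison asks what changed in microglia 1 day after the antibody and complement injection. With all libraries, 0 of the 10 members were called in NMO against Normal, beside 0.472% of all tested genes called higher and 0.0244% called lower (1 member had an unadjusted p under 0.05, and DESeq2, with no adjusted p for Lcn2, and limma-voom called 0). Saa3 had the largest difference, a log2 fold change of 3.65 ± 1.07 (SE, adjusted p = 0.181). It passed the filter on low counts only through the NMO+CL libraries, where it is high, and could not be tested when only NMO and Normal libraries were kept. Its value was 2.19 without NMO replicate 2 (adjusted p = 0.591). Without Normal replicate 3 the Normal libraries left held no Saa3 count, so that the fitted value of 8.25 (adjusted p = 0.15) is no estimate of size. Lcn2 followed at 1.51 ± 0.99 (adjusted p = 0.707), then Mmp9 at 1.08 ± 1.32 (adjusted p = 0.922) and Chil3 at 0.64 ± 0.88 (adjusted p = 0.935). The log2 fold changes of Ltf (0.39), S100a9 (0.38), S100a8 (0.26), Mmp8 (0.10), Camp (-0.07) and Ngp (-0.11) were smaller than their SE of 0.74 to 1.16. The median over the 10 members was 0.38 and that over all tested genes was -0.01. No member had every NMO library above every Normal library, which 9.21% of tested genes had.

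The values of most members depended on Normal replicate 1. Without Normal replicate 1 and NMO+CL replicate 1, 3 members were called higher in NMO than in Normal, namely S100a8 (log2 fold change 2.64, adjusted p = 0.0387), S100a9 (2.91, adjusted p = 0.029) and Lcn2 (adjusted p = 0.00724, against 1 count in the 2 Normal libraries left). Of all genes tested in that fit 0.19% were called higher. These calls follow the removal of the Normal library that was seen to be highest for these genes. Without Normal replicate 1 alone, only Lcn2 was called (adjusted p = 0.0081, beside 0.163% of all genes called higher), and the adjusted p was 0.0975 for S100a8 and 0.093 for S100a9. Without Normal replicate 2 the log2 fold changes of S100a8 and S100a9 were -0.24 and -0.12, and without Normal replicate 3 they were -0.23 and -0.13. Leaving out NMO replicate 3 also turned them, to -0.19 and -0.07.

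**Figure D2:**
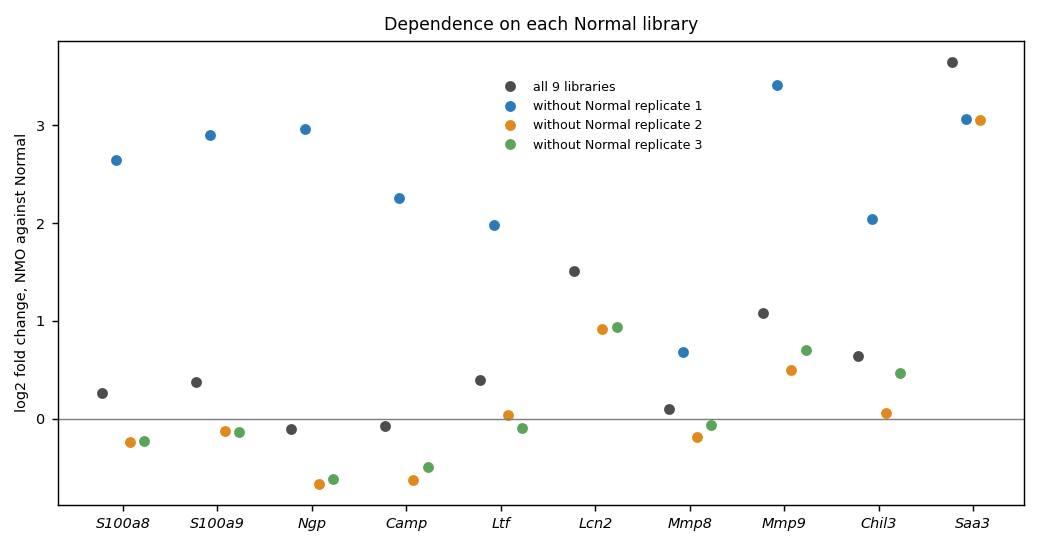
Log2 fold change of each gene in NMO against Normal (vertical axis) with all 9 libraries and with each Normal library left out in turn. The values without Normal replicate 1 (blue) are the highest for 8 of the 9 genes where they are drawn, at 2.64 for S100a8 and 2.91 for S100a9. A point is not drawn where the Normal libraries left hold at most 1 count (Lcn2 without replicate 1, Saa3 without replicate 3).

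The comparison of NMO+CL with NMO, in which the genes were chosen, asks how microglia differed when monocytes had been depleted before the injection, and is described without a test. The log2 fold changes were 3.53 ± 0.84 (SE) for Saa3, 1.70 ± 0.76 for S100a8, 1.66 ± 0.79 for S100a9, 1.58 ± 0.87 for Chil3, 1.40 ± 0.95 for Lcn2 and 1.31 ± 1.29 for Mmp9. They were 0.81 ± 0.88 for Ngp, 0.61 ± 0.85 for Ltf, 0.30 ± 1.08 for Mmp8 and 0.21 ± 1.16 for Camp. Of all tested genes 0.529% were called higher and 1.07% lower. Saa3 and Lcn2 had every NMO+CL library above every NMO library, an arrangement that 7.89% of tested genes had. Without Normal replicate 1 and NMO+CL replicate 1 the log2 fold change of Saa3 was 3.45, and those of S100a8, S100a9 and Lcn2 were 0.98, 0.75 and 0.51. In the same setting Ngp was at -0.02, Ltf at -0.25, Mmp8 at -0.10 and Camp at -1.92.

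The third comparison sets injected and clodronate-treated mice against Normal mice, and it shares its NMO+CL libraries with the comparison just described. Saa3, S100a9 and S100a8, for which the genes were chosen, had log2 fold changes of 7.18 ± 1.09, 2.03 ± 0.80 and 1.96 ± 0.76 (SE) here. Without Normal replicate 1 they were 4.57 for S100a9 and 4.35 for S100a8, and without NMO+CL replicate 1 they were 1.12 and 1.23. Without Normal replicate 3 the fitted value of Saa3 was 11.81, against Normal libraries with no count. Of the other 7 members 0 were called, beside 4.79% of tested genes called higher and 4.43% lower (2 had an unadjusted p under 0.05, DESeq2 called 0 with no adjusted p for Lcn2, and limma-voom called 1, Lcn2). Lcn2 came closest at 2.91 ± 1.02 (adjusted p = 0.0871), followed by Chil3 at 2.22 ± 0.90 (adjusted p = 0.143) and Mmp9 at 2.39 ± 1.35 (adjusted p = 0.331). Ltf was at 1.00 ± 0.86 (adjusted p = 0.589), Ngp at 0.70 ± 0.88 (adjusted p = 0.749), Mmp8 at 0.40 ± 1.09 (adjusted p = 0.905) and Camp at 0.14 ± 1.16 (adjusted p = 0.973). Saa3 and Lcn2 were the only members with every NMO+CL library above every Normal library, beside 13.8% of tested genes. Without Normal replicate 1 and NMO+CL replicate 1, Lcn2 (adjusted p = 0.000586) and Ngp (log2 fold change 2.95, adjusted p = 0.0348) were called higher, beside 2.65% of all genes. Without Normal replicate 1 alone the adjusted p was 0.00026 for Lcn2 and 0.00975 for Ngp, beside 2.98% of all genes called higher. These calls follow the removal of the Normal library seen to be highest for both genes, so they are a description only. The Normal libraries left held 0 and 1 Lcn2 counts.

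**Figure D3:**
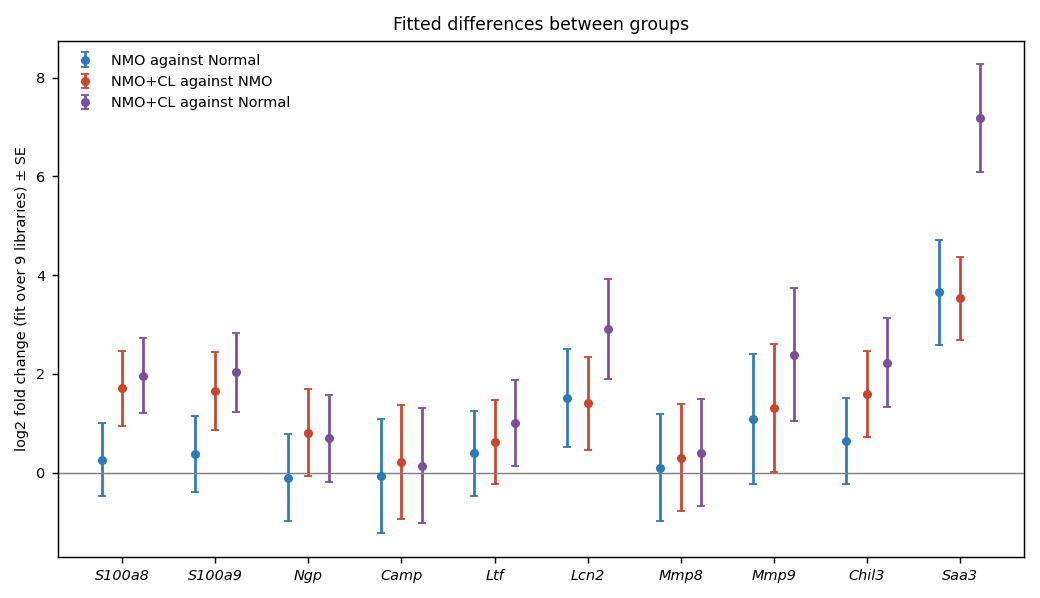
Log2 fold change of each gene in 3 comparisons (vertical axis; points with bars of 1 SE, from a fit over 9 libraries). Saa3, one of the genes chosen for its level in NMO+CL, is at 3.65, 3.53 and 7.18, and the bars of Camp, Ngp, Ltf and Mmp8 reach or come close to 0 in most comparisons.

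The reads of each member were also counted against S100a8 in the same library. S100a8 is among the genes selected for higher counts in NMO+CL, so a gene that differed less has a lower ratio there by construction, and the ratios are a description only. Ngp made 24.3, 30.3 and 25.6 reads for each 100 S100a8 reads in NMO, and 14.5, 10.4 and 14.1 in NMO+CL, with no overlap. Camp made 9.76, 14.2 and 18.1 in NMO and 7.36, 0 and 2.86 in NMO+CL, also with no overlap. Of all other tested genes, 26.7% had a ratio to S100a8 that was lower in every NMO+CL library than in every NMO library. Ltf made 4.05, 15.2 and 12.2 in NMO and 4.87, 3.42 and 4.47 in NMO+CL, where the ranges overlapped. The Normal libraries spread across both groups for Ngp (35.2, 11.6 and 28.7) and lay at 18.3, 6.98 and 29.9 for Camp. With 3 libraries a side the smallest two-sided exact permutation p is 0.1, so these ratios carry no test. Saa3 did not hold a ratio to S100a8 within any group: it made 0, 0 and 9.20 reads per 100 S100a8 reads in Normal, 1.40, 33.9 and 2.19 in NMO, and 14.7, 97.5 and 6.70 in NMO+CL.

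**Figure D4:**
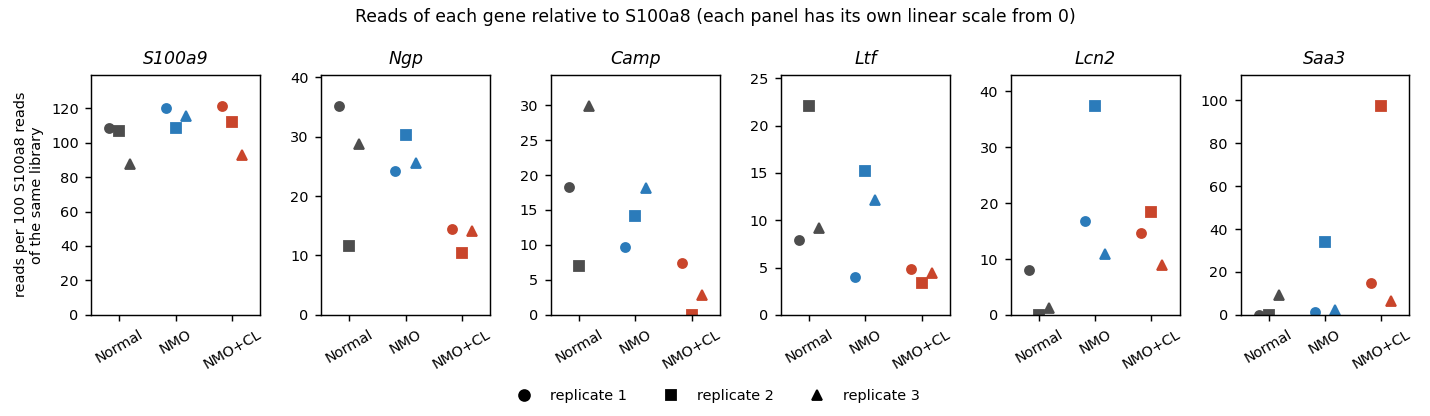
Reads of 6 genes for each 100 S100a8 reads of the same library (vertical axis, linear from 0, own scale per panel), by group and replicate. S100a9 stays between 87.4 and 121 in all libraries, Ngp and Camp are lower in every NMO+CL library than in every NMO library, as are 26.7% of all tested genes against this denominator, which was itself selected for higher counts in NMO+CL, and Saa3 reaches 97.5 in NMO+CL replicate 2.

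Markers of neutrophils that are not members were at low levels and partly moved with the members. Of 28 listed, 27 were in the files, 10 were testable and 1, Bpi, had no count in any library. Ly6g was not analysed here. Their summed level ran from 76.9 to 93.7 CPM in Normal, 69.3 to 149 in NMO and 81.7 to 223 in NMO+CL. The one with the most reads in Normal and NMO was Csf3r, the receptor for the cytokine that drives neutrophil production, at 63.4 ± 16.7, 70.4 ± 24.1 and 36.0 ± 15.4 CPM (SD, n = 3) in Normal, NMO and NMO+CL. The other 26 summed to 41.9, 17.8 and 11.9 CPM in Normal replicates 1 to 3, 41.4, 15.8 and 51.2 CPM in NMO, and 169.7, 182 and 56.7 CPM in NMO+CL. Without Il1r2 and Trem1 as well, the NMO+CL sums were 124, 33.4 and 42.9 CPM, so that replicate 2 was the lowest of the 3, as it was for S100a8. Of these 26, 16, 6 and 7 had a count in the Normal libraries, 15, 14 and 12 in NMO, and 21, 10 and 11 in NMO+CL, so Normal replicate 1 and NMO+CL replicate 1 also held more of these markers than the other libraries of their groups. The part of neutrophil RNA in the members' levels was not tested.

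The defining neutrophil genes did not all follow one pattern. Elane, the elastase of primary granules, had 4, 0 and 0 counts in Normal, 0 in all NMO libraries, and 23, 0 and 9 in NMO+CL. Mpo, the primary granule peroxidase, had 12, 0 and 0 counts in Normal, 0, 8 and 35 in NMO, and 12, 0 and 141 in NMO+CL. Retnlg, a resistin-like protein of mature neutrophils, measured 13.5, 6.17 and 4.21 CPM in Normal, 12.8, 0.598 and 17.6 in NMO, and 33.9, 11.5 and 4.003 in NMO+CL. Cxcr2, the chemokine receptor that guides neutrophils, stayed between 0.718 and 4.37 CPM. Retnlg was highest in Normal replicate 1 and NMO+CL replicate 1 like S100a8, and Csf3r, Cxcr2, Mpo and Retnlg were not called in any comparison, while Elane had too few counts to test.

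Trem1 and Il1r2, a receptor that amplifies inflammatory signals and a decoy receptor for interleukin-1, are found on neutrophils and also on monocytes and macrophages. Like Saa3, they had at most 4 counts in Normal replicate 1 and their highest level in NMO+CL replicate 2. Trem1 had 4, 0 and 0 counts in Normal, 18, 12 and 17 in NMO, and 155, 187 and 46 in NMO+CL, and was called higher in NMO+CL than in Normal (log2 fold change 6.45 ± 1.10 SE, adjusted p = 0.00118), also with each library left out in turn. Against NMO its log2 fold change was 3.23 ± 0.89 (adjusted p = 0.0856). Il1r2 had 0, 0 and 10 counts in Normal, 20, 15 and 15 in NMO, and 158, 730 and 40 in NMO+CL. It was called higher in NMO+CL than in NMO (4.45 ± 0.97, adjusted p = 0.0252) and than in Normal (6.46 ± 1.12, adjusted p = 0.00134), and both calls were lost without NMO+CL replicate 2, with adjusted p values of 0.502 and 0.0633. The first call was also lost without any 1 of the NMO libraries, with DESeq2 (adjusted p = 0.0786), with limma-voom (0.261) and with a replicate block (0.0565), and the second with limma-voom (0.168). Of the 10 testable neutrophil markers these were all that were called, 1 higher in NMO+CL against NMO and 2 higher in NMO+CL against Normal, beside 0.529% and 4.79% of all tested genes. In the same order DESeq2 called 1 (Trem1, not Il1r2) and 2, and limma-voom called 0 and 1. In NMO against Normal 0 were called (1 had an unadjusted p under 0.05, and DESeq2 and limma-voom called 0).

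**Figure D5:**
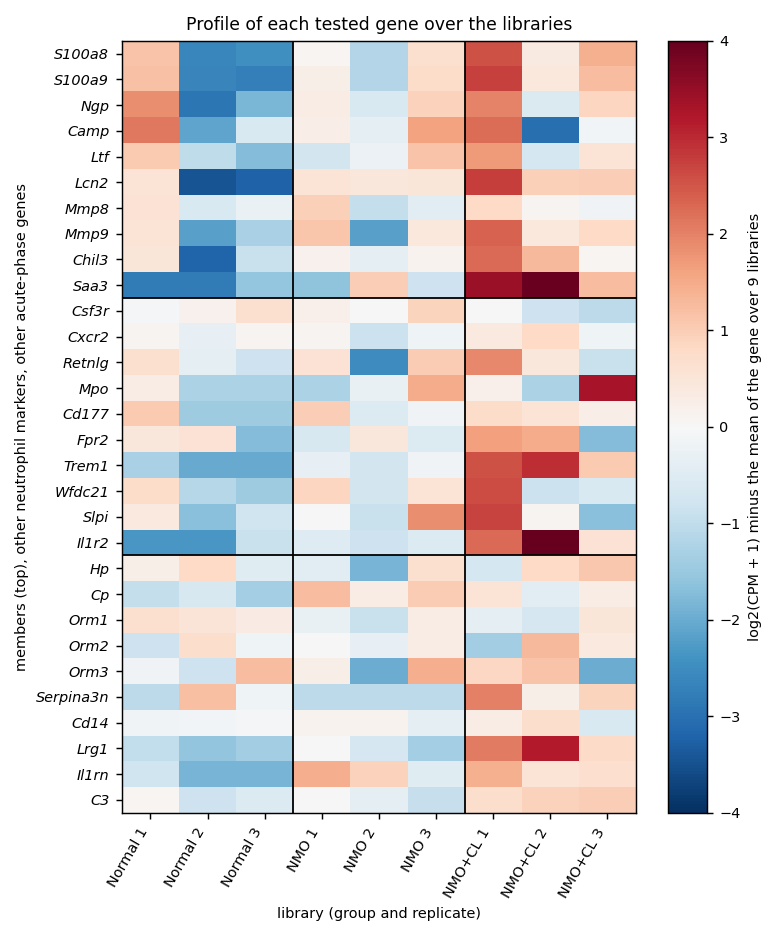
Level of each testable gene in each library, as log2(CPM + 1) minus the gene's mean over the 9 libraries (colour; red above, blue below the mean), for the members, other neutrophil markers and other acute-phase genes (rows) in the 9 libraries (columns). S100a8, S100a9, Ngp and Camp are above their mean in Normal replicate 1, whereas Saa3, Il1r2, Trem1 and Lrg1 are below theirs and peak in NMO+CL replicate 2.

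Other acute-phase genes were counted in the same way. Of 25 listed, 10 were testable and 6 had no count in any library, among them the liver forms Saa1 and Saa2. Lrg1, a secreted glycoprotein of the acute phase, measured 3.03, 1.66 and 2.02 CPM in Normal, 7.04, 3.95 and 2.08 in NMO, and 32.5, 70.1 and 12.5 in NMO+CL. It was called higher in NMO+CL than in NMO (3.13 ± 0.63, adjusted p = 0.0172, lost without NMO+CL replicate 2 at an adjusted p of 0.233 and with limma-voom at 0.0936) and than in Normal (4.09 ± 0.67, adjusted p = 0.000842). Cp, the copper-carrying ferroxidase ceruloplasmin, measured 9.40, 11.9 and 6.90 CPM in Normal, 46.3, 23.9 and 39.4 in NMO, and 28.7, 13.8 and 23.9 in NMO+CL. It was called higher in NMO than in Normal (1.95 ± 0.41, adjusted p = 0.0425), a call lost without any 1 of the Normal libraries or without NMO replicate 1 or 3 (adjusted p up to 0.204), with limma-voom (0.115), with a replicate block (0.0691) and with only the 2 groups compared (0.0507). No other gene of this list was called by edgeR, which gives 1 of 10 called higher and 0 lower in each comparison, beside 0.472%, 0.529% and 4.79% of all tested genes called higher in NMO against Normal, NMO+CL against NMO and NMO+CL against Normal. In the same order DESeq2 called 1, 2 and 3 genes of the list, and limma-voom called 0, 0 and 1.

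Among the relatives of the members, 0 of 9 testable S100 genes were called in any comparison by edgeR, DESeq2 or limma-voom (2, 2 and 0 had an unadjusted p under 0.05 in NMO against Normal, NMO+CL against NMO and NMO+CL against Normal). S100a4, a calcium-binding protein of motile cells, was 6.28 CPM on average for Normal, 25.6 for NMO and 8.73 for NMO+CL, with each NMO library above every library of the other groups. Of all tested genes 9.21% had every NMO library above every Normal library. S100a4 was not called. Its adjusted p was 0.207 in NMO against Normal and 0.268 in NMO+CL against NMO. This gene was named after its values were seen. Of 10 testable matrix metalloproteinases and their inhibitors, Timp2 (-0.93 ± 0.21, adjusted p = 0.00844) and Mmp11 (-4.001 ± 1.22, adjusted p = 0.0489) were called lower in NMO+CL than in Normal. In that comparison 4.43% of all tested genes were called lower. The call of Timp2 was lost without Normal replicate 2 or NMO+CL replicate 2, with adjusted p values up to 0.0587. That of Mmp11 was kept only without NMO replicate 2 or 3 or NMO+CL replicate 1, with adjusted p values up to 0.181 in the other 6 fits, and was lost with limma-voom (0.079). Without both Normal replicate 1 and NMO+CL replicate 1 neither was called (adjusted p = 0.112 for Timp2 and 0.051 for Mmp11). In the other comparisons 0 were called (0 and 2 had an unadjusted p under 0.05, and the other tools called 0). The 2 testable chitinase-like genes, Chil1 and Chia1, gave 0 calls, with no unadjusted p under 0.05 and 0 calls by the other tools.

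Receptors for the member proteins were measured in the same cells. Tlr4, the receptor for calprotectin, measured 37.4 ± 3.29, 40.3 ± 1.61 and 34.7 ± 6.48 CPM (SD, n = 3) in Normal, NMO and NMO+CL, and its log2 fold change was 0.11 ± 0.27 in NMO against Normal and -0.21 ± 0.27 in NMO+CL against NMO (SE, adjusted p = 0.974 and 0.833). Of 11 such receptors 1 was called higher and 1 lower in NMO+CL than in Normal, beside 4.79% and 4.43% of all tested genes. Tlr2, a receptor for bacterial lipoproteins and serum amyloid A, was called higher (1.63 ± 0.33, adjusted p = 0.00361, also with each library left out). Ly96, the partner protein of Tlr4, was called lower (-2.16 ± 0.63, adjusted p = 0.0371), a call kept only without NMO replicate 3, with adjusted p values up to 0.176 in the other 8 fits, and lost with all genes that had a count (0.076), limma-voom (0.108) a replicate block (0.0641) and without both Normal replicate 1 and NMO+CL replicate 1 (0.107). In NMO against Normal and NMO+CL against NMO 0 were called (1 and 2 had an unadjusted p under 0.05, limma-voom called 0, and DESeq2 called 1 and 0).

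Of 16 testable genes of the signalling and transcription that control granule and acute-phase genes, 3 were called higher and 2 lower in NMO+CL than in Normal, beside 4.79% and 4.43% of all tested genes. Nfkbia, the feedback inhibitor of NF-kB, was higher by 0.82 ± 0.18 (adjusted p = 0.00632), Socs3, the feedback inhibitor of interleukin-6 signalling, by 1.17 ± 0.27 (adjusted p = 0.0108) and Stat3, the transcription factor of that pathway, by 1.02 ± 0.25 (adjusted p = 0.015). Cebpa, a C/EBP factor of early granulocyte and macrophage precursors, fell by 1.36 on the log2 scale (SE 0.21, adjusted p = 0.000571), and Il6ra, the interleukin-6 receptor, fell by 1.01 (SE 0.21, adjusted p = 0.00494). The Cebpa, Il6ra and Nfkbia calls were kept with each library left out, Socs3 was lost without Normal replicate 1 or 2 (adjusted p up to 0.0644), and Stat3 was lost without either of those or NMO+CL replicate 2 (up to 0.0918). Without both Normal replicate 1 and NMO+CL replicate 1 only Cebpa of these was called (adjusted p = 0.00959). In NMO against Normal and NMO+CL against NMO 0 of the 16 were called (4 and 5 had an unadjusted p under 0.05, limma-voom called 0, and DESeq2 called 1 and 0).

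Markers of other cells the sort could hold were counted too. Monocyte markers summed to 25.6 to 51.6 CPM in Normal, 37.5 to 82.5 in NMO and 48.7 to 72.5 in NMO+CL. In NMO+CL against Normal 1 of 9, Fn1 (fibronectin), was called higher, beside 4.79% of all tested genes. Its log2 fold change was 2.45 ± 0.64 (adjusted p = 0.0218). The call was lost without Normal replicate 1 or 3 or NMO+CL replicate 1 or 2 (up to 0.0876). Ccr2, Vcan and Plac8 were lower there, at -1.25, -1.58 and -0.38, and the other testable markers were higher, none of them called. Ly6c2, the defining marker of inflammatory monocytes, had 30, 0 and 2 counts in Normal, 44, 20 and 35 in NMO, and 35, 15 and 24 in NMO+CL, so its highest Normal library was also replicate 1. Border macrophage markers summed to 308 to 480 CPM in Normal, 215 to 365 in NMO and 435 to 690 in NMO+CL. Cbr2 and Stab1 made most of these sums. In NMO+CL against Normal 1 of 7, Stab1, was called higher (0.76 ± 0.22, adjusted p = 0.036), beside 4.79% of all tested genes. That call was lost without any 1 of the Normal libraries or NMO+CL replicate 2 (up to 0.239). Mrc1 (-0.13), Lyve1 (-0.39) and Pf4 (-1.03) were lower there, and the other testable markers were higher. Astrocyte markers summed to 168 to 215, 104 to 134 and 84.6 to 127 CPM, and Slc1a3 made most of this in every library. Gfap had a count only in NMO+CL replicate 1 and Aldh1l1 only in NMO replicate 2. Called lower in NMO+CL than in Normal were 2 of 5, the glutamate transporters Slc1a2 and Slc1a3 (adjusted p = 0.0298 and 0.027). Of all tested genes 4.43% were called lower. The Slc1a2 call was lost without Normal replicate 1 or 3 or NMO+CL replicate 2 or 3 (up to 0.196) and with limma-voom (0.337), and it had no value with only the 2 groups compared. The Slc1a3 call was lost without Normal replicate 2 or 3 or NMO+CL replicate 1 or 2 (up to 0.132) and with library totals alone (0.0539). Without both Normal replicate 1 and NMO+CL replicate 1, Slc1a2, Slc1a3 and Fn1 were not called (adjusted p = 0.231, 0.0867 and 0.128). Endothelial markers summed to 63.1 to 104, 44.8 to 93.0 and 62.9 to 100.1 CPM with 0 of 7 called, and lymphocyte markers to at most 7.17 CPM in any library with 0 of 1 called, although DESeq2 called that gene lower in NMO+CL than in Normal. Red blood cell markers summed to 508 to 802 CPM in the Normal libraries, 15.6 to 1121 in NMO and 1105 to 1329 in NMO+CL, so that every NMO+CL library was above every Normal library, as for Saa3 and Lcn2, and 0 of 7 were called. Wherever 0 genes of these 6 lists were called by edgeR, limma-voom also called 0 and at most 1 gene of a list had an unadjusted p under 0.05. The part of these cells in the members' levels was not tested.

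The genes whose profile over the 9 libraries came closest to each member were found by the root mean square difference of log2(CPM + 1) after removal of each gene's mean. S100a8 and S100a9 were closest to each other, at 0.147. Outside the members, Tigar, Ifitm1 and Esam came next for both, at 0.741, 0.819 and 0.842 from S100a8. Ngp was 0.574 from S100a8, and its nearest genes outside the members were Esam (0.635), Ly6c2 (0.757) and Chia1 (0.783). Saa3 was 1.74 from its nearest member, Chil3, and closer to Sema6b (0.870), Il1r2 (0.924) and Pilrb2 (0.958). Lcn2 was 0.696 from S100a9 and 0.774, 0.858 and 0.895 from Bcl3, Relt and Lilrb4a. Chil3 was closest to Esam (0.603), Itga10 (0.664) and Cox6a2 (0.666), Ltf to Cadps2 (0.418), Eppk1 (0.442) and Apod (0.459), and Camp to Samd4 (0.935), Plxna2 (0.967) and Klc3 (1.06). Genes with low counts vary over a small range on this scale, which brings them close to low members such as Ltf.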

How the data were processed

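RNA of 9 pools of sorted microglia was sequenced by QuantSeq, in which reads come from the 3′ end of each mRNA. Per the methods, the authors aligned single-end reads (Bowtie2) and counted them over genes (bedtools), multiple alignments included, so a read may count at several gene copies. The submitters' processing notes name mm10. The annotation and the use of strand are not given in the sources used here. The deposited values are raw counts for 23282 entries, and the 35 symbols on several entries were summed. The depth was 5788234 to 7837219 counts per library, and intervals and floors cover counting error only.

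Genes were filtered with filterByExpr (minimum count 10, minimum total 15), which left 12292. edgeR 4.0.16 (R 4.3.3) scaled libraries by TMM and fitted a quasi-likelihood model with 1 coefficient per group to all 9 libraries, after a check on simulated data. Tests were two-sided, and Benjamini-Hochberg adjustment covered every tested gene of a comparison. CPM are counts over TMM-scaled library sizes, and SDs are between libraries. SEs of log2 fold changes are approximate: the absolute log2 fold change was divided by the square root of the F statistic of the quasi-likelihood test. DESeq2 1.42.0 and limma 3.58.1 were alternatives, as were other scalings, filters, groups and left-out libraries. Transcript ends were compared with blastn 2.17.0. Ratios, sums and rankings over genes are of reads. They are not a comparison of transcript amounts between genes, since reads come from transcript ends.

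The members and lists were chosen with earlier results of these data known. Named genes are the members, up to 4 called genes of each list and comparison with the lowest adjusted p, the defining markers, Tlr4 and the nearest profiles of members with a mean count of at least 50. S100a4, Stat3, Sall1, Fcrls, Cx3cr1, Chil1, Chia1 and genes at 0 counts were named after their values were seen. So were Ccr2, Vcan, Plac8, Cbr2, Mrc1, Lyve1, Pf4, Gfap and Aldh1l1. Each library is stated to be an independent pool of 3 mice.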

Additional observations from a re-analysis of the deposited data

How the results depend on the processing

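The number of genes called in NMO against Normal (61) was 96 with library totals alone, 223 with all genes that had a count, 224 with DESeq2 and 34 with only the 2 groups compared. For NMO+CL against NMO (196) it was 496, 465 and 73 in the last 3 of these settings, and for NMO+CL against Normal (1134) it stayed within 1.5 times. With libraries left out the 3 numbers ran from 20 to 75, from 51 to 231 and from 649 to 1263, and without both Normal replicate 1 and NMO+CL replicate 1 they were 27, 153 and 658. Members called ran from 0 to 3 in NMO against Normal and from 0 to 2 of 7 in NMO+CL against Normal over the left-out libraries. With all genes that had a count, 1 member (Saa3) and 2 (Lcn2 and Chil3) were called, and with limma-voom and with a replicate block 0 and 1 (Lcn2). The deviations of same-numbered libraries had correlations from -0.02 to 0.04 across genes. Such a correlation can miss a deviation shared by only a few genes, so it does not decide whether the numbers pair the libraries. For 9 members the highest Normal library and the highest NMO+CL library were both replicate 1. Whether same-numbered libraries shared a batch was not tested. With the block the log2 fold change of Lcn2 in NMO+CL against Normal was 3.86 (adjusted p = 0.0106). In NMO against Normal, library totals alone turned Ngp to 0.075 and Camp to 0.10, limma-voom turned Ngp to 1.38, Camp to 0.91 and Mmp8 to -0.14, and the block turned them to 1.21, 1.55 and -0.10. In NMO+CL against Normal, limma-voom turned Camp to -0.80 and the block to -0.056. With libraries left out, log2 fold changes in NMO against Normal ran from -0.24 to 2.64 for S100a8, -0.13 to 2.91 for S100a9, -0.66 to 2.96 for Ngp, -0.92 to 2.26 for Camp, -0.48 to 1.99 for Ltf, -0.996 to 0.68 for Mmp8 and 2.19 to 8.25 for Saa3. In NMO+CL against Normal they ran from -0.14 to 3.78 for Ngp, -2.00 to 2.47 for Camp and -0.0101 to 0.99 for Mmp8, 1.23 to 4.35 for S100a8, 1.12 to 4.57 for S100a9 and 6.51 to 11.81 for Saa3. In NMO+CL against NMO, limma-voom turned Camp from 0.21 to -1.71 and the block to -1.60, and over all settings it ran from -1.93 to 1.06, Ngp from -0.03 to 1.24, Ltf from -0.27 to 1.48 and Mmp8 from -0.11 to 1.40, while the other 6 members stayed above 0. The cause of these changes was not tested. Most members had under 100 counts in some library, which limits what their levels can show.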
